A study of Homo sapiens with 6 samples.

Results

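This section describes 45 genes of the signalling route by which TNF-α, IL-1 and IL-17 reach NF-κB, measured by RNA sequencing in 6 libraries of Ker-CT cells. The 45 genes were chosen by name as receptors (7), adaptors and kinases (18), NF-κB subunits (5) and inhibitors, feedback and target genes (15), out of 58302 gene rows in the deposited table. Ker-CT cells are human keratinocytes made immortal by telomerase and CDK4. One group, siKMT2C, was 3 libraries from cells given siRNA against the histone H3 lysine 4 methyltransferase KMT2C, and the other, siNC, was 3 libraries from cells given control siRNA. Both groups shared 24 h in M5, a cytokine mixture (10 ng/ml of each) of oncostatin M, IL-22, IL-17A, TNF-α and IL-1α, so the pathway was under stimulation in every library and no unstimulated culture was among the samples used here. All 6 libraries came from 1 cell line, and the labels do not say whether replicates were separate cultures, so p-values measure the spread between these libraries, which may be technical.

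TNF-α binds the receptors encoded by TNFRSF1A and TNFRSF1B, IL-1α binds IL1R1 together with the accessory chain IL1RAP, and IL-17A binds a complex of IL17RA and IL17RC. Their adaptors (TRADD and RIPK1, MYD88 and the IRAK kinases, TRAF3IP2) gather TRAF ubiquitin ligases, which activate the kinase TAK1 (MAP3K7) with its TAB partners and then the IκB kinase made of CHUK, IKBKB and IKBKG. NF-κB dimers released in this way switch on inflammatory genes and their own brakes, such as NFKBIA and TNFAIP3. In psoriatic epidermis these cytokines act together on keratinocytes.

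Libraries held 15921870 to 16414777 counts in siKMT2C and 14409277 to 17539519 in siNC. KMT2C (ENSG00000055609) was at 32.0, 30.8 and 27.3 CPM (counts scaled to library size, with TMM factors) in siKMT2C, against 87.9, 82.0 and 72.6 CPM in siNC. Its level was 37.1% of siNC (95% interval 29.7% to 46.5%, edgeR adjusted p = 0.00786). Leaving out siKMT2C replicate 1 gave an edgeR adjusted p of 0.0634, leaving out siKMT2C replicate 2 gave 0.0507, and leaving out siNC replicate 2 gave 0.0593. All 15 keratinocyte markers passed the filter on low counts, with a summed level of 20138 to 26980 CPM in siKMT2C and 20430 to 30004 CPM in siNC. The 9 leukocyte markers, of which 1 passed the filter, summed to 0.428 to 0.771 CPM in siKMT2C and 1.49 to 1.91 CPM in siNC, with PTPRC, CD3E and HLA-DRA at 0 in every library. The 1 that passed, CD14, had 10 counts in siKMT2C and 50 in siNC (log2 fold change -2.23, edgeR adjusted p = 0.0534). The 6 endothelial markers, of which 0 passed, summed to at most 0.193 CPM in siKMT2C and 0.338 CPM in siNC, with PECAM1 and CDH5 at 0. The 10 fibroblast markers (6 passed) summed to 35.1 to 44.6 CPM in siKMT2C and 42.3 to 66.0 CPM in siNC, and the 7 melanocyte markers (3 passed) to 6.97 to 8.93 CPM in siKMT2C and 7.96 to 15.7 CPM in siNC, with TYR, DCT and SOX10 at 0. The melanocyte markers that passed were MITF (245 counts in siKMT2C, 458 in siNC), PMEL (54 and 68) and MLANA (59 and 44). The part of these other cell types in the results was not tested. In bulk RNA fewer cells of a type and less RNA per cell cannot be told apart.

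NF-κB binds κB sites, and the promoters of several of these genes hold one. RefSeq windows from 250 bases before to 50 bases after the gene start (GRCh38.p14) were found for 39 of the 45 genes, 67 windows in all. The κB consensus, searched on both strands, occurred in 15 of the 67 windows (22.39%, in 12 genes), against 5.91% of all 35116 windows. Counted by gene it was 12 of 39, against 1937 of 27305. The set was chosen to hold NF-κB feedback and target genes, and 1 gene can have several windows, so this contrast is a description and no test. It occurred in 9 of 24 windows of inhibitors and feedback targets, 4 of 8 of subunits, 2 of 25 of adaptors and kinases and 0 of 10 of receptors. One match is shown for each of 7 genes whose values are given further on. Sequences run 5′ to 3′ on the gene's strand, and capitals mark the match.
TNFAIP3: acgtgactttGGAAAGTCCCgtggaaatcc
NFKBIA: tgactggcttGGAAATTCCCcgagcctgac
BIRC3: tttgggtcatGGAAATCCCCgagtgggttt
TNIP1: ccagtctccgGGGACTTTCCcaggggtggg
NFKB1: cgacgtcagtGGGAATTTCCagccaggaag
NFKB2: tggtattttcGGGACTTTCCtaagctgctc
TRAF3: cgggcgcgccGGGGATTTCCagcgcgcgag
The TNFAIP3 stretch lies at chr6:137867182-137867211 with the match starting at -67 from the gene start, that of NFKBIA at chr14:35404811-35404840 (minus strand, -81) and that of BIRC3 at chr11:102317275-102317304 (-199). The TNIP1 stretch lies at chr5:151081057-151081086 (minus strand, -42), that of NFKB1 at chr4:102501300-102501329 (-49), that of NFKB2 at chr10:102395674-102395703 (-21) and that of TRAF3 at chr14:102777406-102777435 (-33). Among the 12 genes with a match, 6 had a positive and 6 a negative log2 fold change, between -0.56 and 0.61, so carrying these letters did not go with 1 direction.

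Levels between genes are given as deposited FPKM (counts scaled by library total and a fixed deposited length per gene). For some genes this length is longer than the gene itself. NFKBIA had 1581 of 16414777 counts in siKMT2C replicate 1, deposited as 13.8 FPKM. That value implies a length above the NFKBIA span (chromosome 14, 35401511 to 35404749). The order given here is therefore one of deposited FPKM, and it does not rank abundance per transcript length. IER3, an early response gene induced by NF-κB that acts on cell survival, stood far above the rest at 95.1 ± 2.46 FPKM in siKMT2C and 128.8 ± 1.804 FPKM in siNC (SD, n = 3 each). TNIP1, which binds the A20 protein made by TNFAIP3, was at 29.9 ± 2.55 FPKM in siKMT2C and 25.6 ± 5.09 FPKM in siNC. By the mean over the 6 libraries the next were the kinase IRAK1 (21.0 ± 4.35 FPKM in siKMT2C, 16.1 ± 4.48 FPKM in siNC), the ubiquitin ligase BIRC3 (11.8 ± 1.07 FPKM in siKMT2C, 17.7 ± 6.02 FPKM in siNC) and NFKBIA, encoding IκBα (13.5 ± 2.54 FPKM in siKMT2C, 12.02 ± 0.842 FPKM in siNC). The order below TNIP1 differed between the groups: IRAK1, NFKBIA and NFKB2 came next in siKMT2C, where every IRAK1 value lay above every BIRC3 value, and BIRC3, IRAK1 and TNFRSF1A in siNC, where the values of IRAK1 and BIRC3 overlapped. The 3 lowest levels belonged to TNFAIP2, the decoy receptor IL1R2 and TNFRSF1B.

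**Figure D1:**
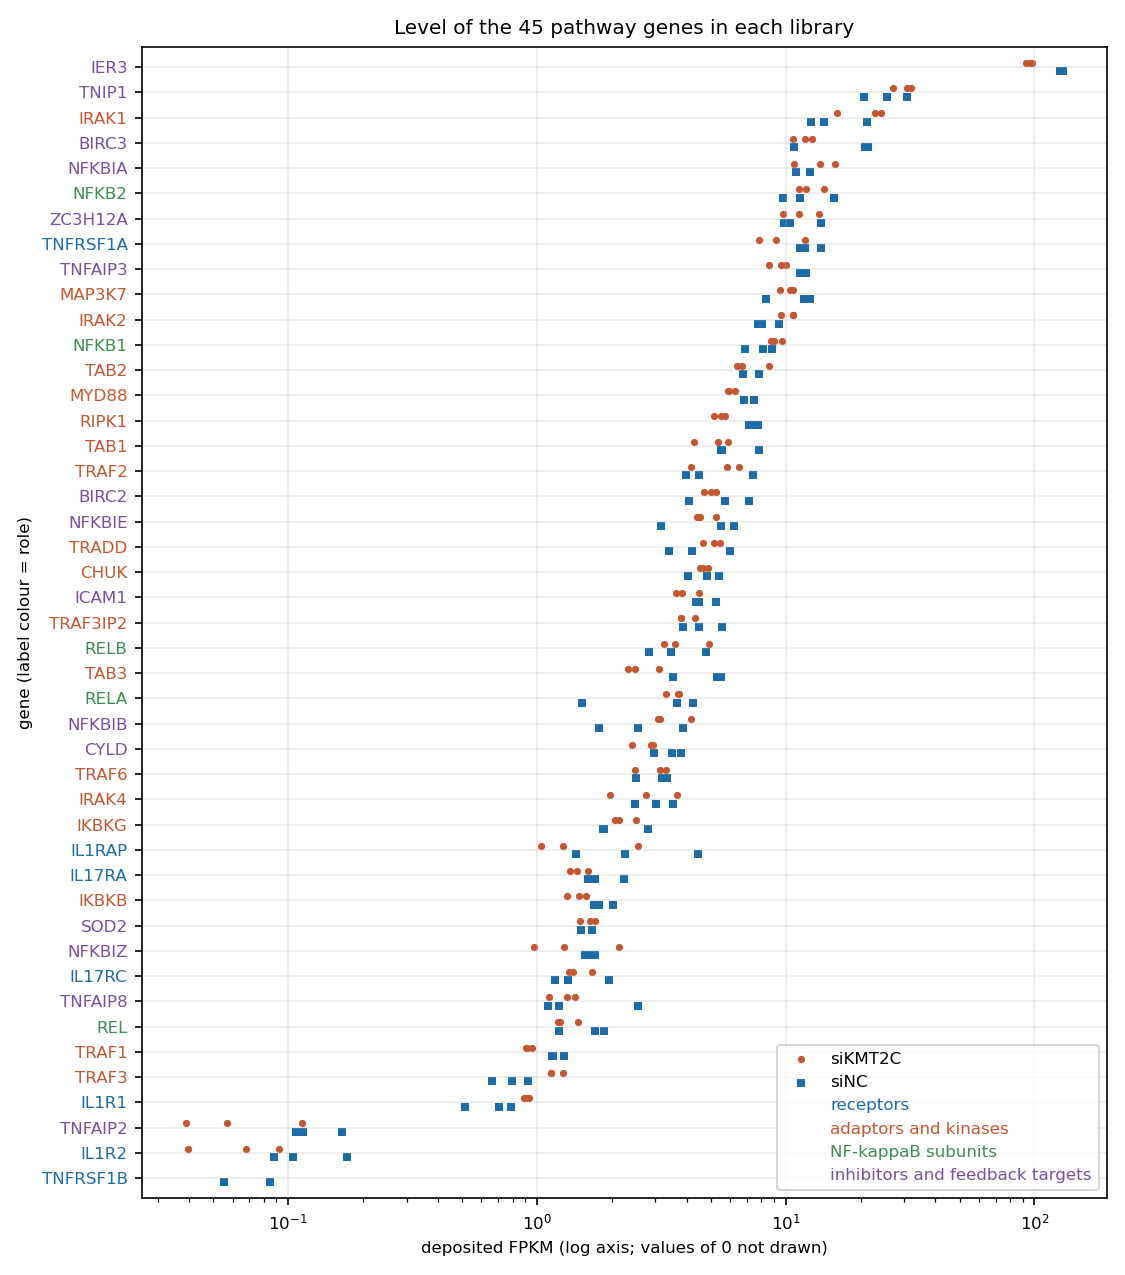
Deposited FPKM (log axis) of the 45 genes in each library, ordered by the mean over the 6 libraries; circles are siKMT2C, squares siNC, and label colours give the role. IER3 lies apart at the top at 95.1 FPKM in siKMT2C and 128.8 FPKM in siNC, and TNFAIP2, IL1R2 and TNFRSF1B lie apart at the bottom.

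No gene of the set passed the test between siKMT2C and siNC. Of the 45, 43 passed the filter on low counts, and 0 of these 43 were called at an adjusted p under 0.05 (edgeR's quasi-likelihood test, Benjamini-Hochberg over 15063 genes), where 1.5% of all genes tested were called, 0.69% as higher and 0.81% as lower in siKMT2C. At an unadjusted p under 0.05 there were 7 of 43, beside 16.9% of all genes tested. DESeq2 called 2, TAB3 (adjusted p = 0.0116) and IER3 (adjusted p = 0.0417), both lower in siKMT2C, and limma-voom called 0. The DESeq2 calls are 4.44% of 45 members beside 2.7% of 29808 genes in that fit. Both totals include low-count genes without an adjusted p, which could not be called, so these shares were not read against each other. The groups did not overlap in 11 of the 43 genes, or 25.6%, where 24.1% of all genes tested did not overlap. The shares at an unadjusted p under 0.05 and without overlap lay near their backgrounds. The smallest edgeR adjusted p in the set was 0.103.

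The median log2 fold change over the 43 tested genes was -0.07, beside 0.00 over all genes tested, with 24 values below 0 and 19 above. By role the medians were -0.30 over 5 receptors, -0.05 over 18 adaptors and kinases, 0.11 over 5 subunits and -0.15 over 15 inhibitors and feedback targets. The 95% interval of the fold change lay within 2-fold either way for 37 of the 43 genes and within 1.5-fold for 15. For the other 6 genes the interval reached beyond 2-fold, so a 2-fold difference was not left out. TAB3 is among these 6, with an SE of 0.21 and an interval (-1.30 to -0.34) that left out 0.

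**Figure D2:**
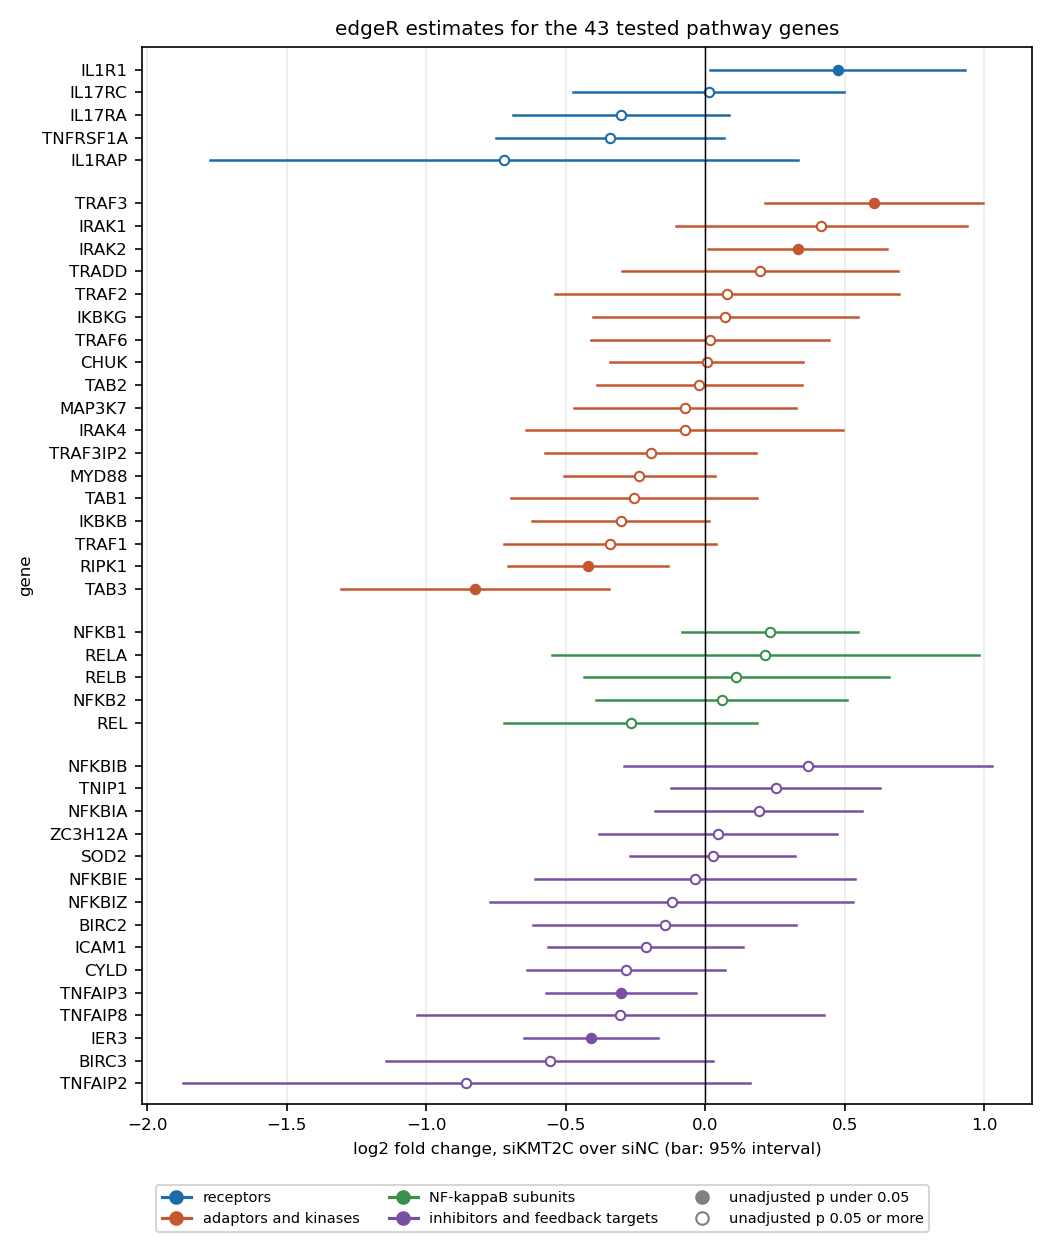
Log2 fold change (siKMT2C over siNC) with its 95% interval for the 43 tested genes, grouped by role, in edgeR's quasi-likelihood fit. Filled points had an unadjusted p under 0.05: IL1R1, TRAF3 and IRAK2 above 0, and RIPK1, TAB3, TNFAIP3 and IER3 below 0; none had an adjusted p under 0.05.

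Among the receptors, IL1R1, the signalling IL-1 receptor chain, was at 11.7, 12.5 and 12 CPM in siKMT2C, against 9.15, 10.3 and 6.64 CPM in siNC. The siKMT2C libraries all lay above the siNC libraries, and siNC replicate 3 was the lowest. The log2 fold change was 0.47 (SE 0.20, 95% interval 0.02 to 0.93, edgeR adjusted p = 0.28). Its accessory chain IL1RAP was at 59.0, 30.3 and 24.1 CPM in siKMT2C, against 101.8, 52.3 and 32.8 CPM in siNC. IL1RAP was highest in replicate 1 and lowest in replicate 3 of both groups, and the groups overlapped. That spread gave an SE of 0.46 around a log2 fold change of -0.72 (edgeR adjusted p = 0.48), the widest among the 5 tested receptors. Of the genes given library by library further on, IRAK1, NFKBIA and BIRC3 were chosen after their values were seen.

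TNFRSF1A, the main TNF receptor of keratinocytes, was at 108.7, 72.1 and 83.5 CPM in siKMT2C, against 124.8, 107.9 and 102.3 CPM in siNC. Replicate 1 of siKMT2C reached into the siNC range, and the log2 fold change was -0.34 (SE 0.18, 95% interval -0.75 to 0.07, edgeR adjusted p = 0.384). TNFRSF1B had 0, 0 and 0 counts in siKMT2C and 0, 5 and 4 counts in siNC. A count of 0 allows up to 0.183, 0.193 and 0.184 CPM in the 3 siKMT2C libraries. The siNC libraries were at 0, 0.346 and 0.225 CPM by replicate number. The values of siNC replicates 2 and 3 rest on 5 and 4 counts with a spread of their own, so they do not show a difference. With no filter edgeR gave TNFRSF1B an unadjusted p of 0.0262 (edgeR adjusted p = 0.375). IL1R2, which binds IL-1 without signalling, had 3, 5 and 7 counts in siKMT2C and 7, 7 and 14 counts in siNC. For IL1R2 the fit with no filter gave an edgeR adjusted p of 0.66. Neither gene passed the main filter, and in FPKM TNFRSF1B was below TNFRSF1A, and IL1R2 below IL1R1, in every library.

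IL17RA, the shared IL-17 receptor chain, was at 23.3, 25.2 and 27.5 CPM in siKMT2C, against 27.1, 29.1 and 37.7 CPM in siNC, a log2 fold change of -0.30 (SE 0.17, edgeR adjusted p = 0.414). Its partner IL17RC was at 20.7, 21.8 and 25.7 CPM in siKMT2C, against 17.9, 20.4 and 29.3 CPM in siNC (log2 fold change 0.01, SE 0.21, edgeR adjusted p = 0.988). Both chains were highest in replicate 3 of each group. The ratio of IL17RC to IL17RA in FPKM does not depend on library scaling. It was 0.987, 0.963 and 1.04 in siKMT2C, against 0.736, 0.781 and 0.866 in siNC, without overlap. The size of such a ratio depends on the deposited lengths, so only its difference between groups was read, here and for the other ratios. The ratio of IL1R2 to IL1R1 was 0.0445, 0.0734 and 0.102 in siKMT2C, against 0.125, 0.134 and 0.338 in siNC, also without overlap, but it rests on the few IL1R2 counts. Each had an exact two-sided permutation p of 0.1, the smallest that 3 against 3 libraries allow, and 0.233 after adjustment over 7 ratios.

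Among the adaptors and kinases, TAB3 had the largest difference. TAB3 encodes a ubiquitin-binding partner of TAK1 (ENSG00000157625, chromosome X, 30827442 to 30975084, GRCh38). It was at 47.0, 60.1 and 44.4 CPM in siKMT2C, against 102.7, 99.7 and 65.8 CPM in siNC. All siKMT2C libraries lay below all siNC libraries, with siNC replicate 3 closest to them. The log2 fold change was -0.82 (SE 0.21, 95% interval -1.30 to -0.34, edgeR adjusted p = 0.103). Without siNC replicate 3 it was -1.01 and was called (edgeR adjusted p = 0.0174). The related TAB2 (log2 fold change -0.02, SE 0.16) and TAB1 (-0.25, SE 0.19) and the kinase MAP3K7 itself (-0.07, SE 0.17) had intervals that included 0.

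TRAF3, a ubiquitin ligase adaptor that restrains the non-canonical route and IL-17 receptor signalling, lay in the other direction (ENSG00000131323, chromosome 14, 102777476 to 102911500, GRCh38). It was at 21.3, 21.8 and 23.9 CPM in siKMT2C, against 12.2, 14.7 and 17.1 CPM in siNC, with no overlap. The log2 fold change was 0.61 (SE 0.17, 95% interval 0.22 to 0.99, edgeR adjusted p = 0.126), and without siNC replicate 3 it was 0.72 and just inside the threshold (edgeR adjusted p = 0.04996). TRAF1 (log2 fold change -0.34, SE 0.16), TRAF2 (0.08, SE 0.27) and TRAF6 (0.02, SE 0.18) were not called.

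RIPK1, the kinase scaffold beside the TNF receptor, was at 37.4, 34.4 and 36.2 CPM in siKMT2C, against 47.8, 50.7 and 46.1 CPM in siNC. Both groups were tight and did not overlap, and the log2 fold change was -0.42 (SE 0.12, 95% interval -0.71 to -0.13, edgeR adjusted p = 0.142). IRAK2, a pseudokinase of the MYD88 complex, was at 37.4, 38.3 and 33.8 CPM in siKMT2C, against 26.7, 28 and 32.3 CPM in siNC. It lay above siNC in every siKMT2C library by a small margin (log2 fold change 0.33, SE 0.14, 95% interval 0.01 to 0.65, edgeR adjusted p = 0.282). IRAK1 had a wider spread, at 230.4, 156.6 and 220.5 CPM in siKMT2C, against 120.0, 136.1 and 199.0 CPM in siNC (log2 fold change 0.42, SE 0.23, edgeR adjusted p = 0.406). MYD88 (-0.24, SE 0.12), TRAF1 and the IκB kinase subunit IKBKB (-0.30, SE 0.14) lay below siNC in every siKMT2C library without being called. The groups overlapped in 11 members of this role, among them the IL-17 adaptor TRAF3IP2 (-0.20), TRADD (0.20), IRAK4 (-0.07), CHUK (0.00) and IKBKG (0.07). IKBKG shares sequence with IKBKGP1, which held 271 counts in siKMT2C and 266 in siNC beside 713 and 705 for IKBKG, so its level is uncertain.

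An earlier scan of these data for 7-mers that go with change had picked GTATAAA in 3′ UTRs (lower in siKMT2C) and TCGGAGA in coding sequences or 3′ UTRs (higher), both on the transcript strand, so their link to change is no independent evidence. Of 12057 tested genes with a 3′ UTR, 95 were called higher and 115 lower in siKMT2C. Of these 12057, 15.3% (1842) carried GTATAAA, with a median log2 fold change of -0.12, 11 called higher and 46 lower. The 9234 genes with neither 7-mer had 60 called higher and 62 lower. Of the 42 tested members with a 3′ UTR, 5 carried it (11.9%): TAB3 in 2 copies, and REL, TRAF6, TNFAIP2 and SOD2 in 1 each, with log2 fold changes of -0.82, -0.27, 0.02, -0.86 and 0.03. TCGGAGA occurred in 9.68% (1167) of the 12057 genes, 29 called higher and 8 lower. It occurred in 2 of the 42 members (4.76%), TRAF3 (0.61) and TRAF6 (0.02), so TRAF6 carried both. Both 7-mers had lower shares among the members than among the 12057 genes, but with 5 and 2 carriers this does not set the members apart. TAB3 and TRAF3 were singled out as extremes of the data that the scan had used, so their carrying a 7-mer is no support for a link. The sites are shown with the 7-mer in capitals, from GENCODE 29 transcripts (GRCh38).
TAB3 site a: cattttggtgaGTATAAAcagcaataaag
TAB3 site b: tatttctgacaGTATAAAcaaaaagaata
TRAF3: gaatgcaaaacTCGGAGAtgctaaactgt
They lie at chrX:30829949-30829977 and chrX:30828158-30828186 (minus strand) and at chr14:102911435-102911463 (plus strand). No siRNA sequence was used here, and the part of these 7-mers in the TAB3 and TRAF3 values was not tested.

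**Figure D3:**
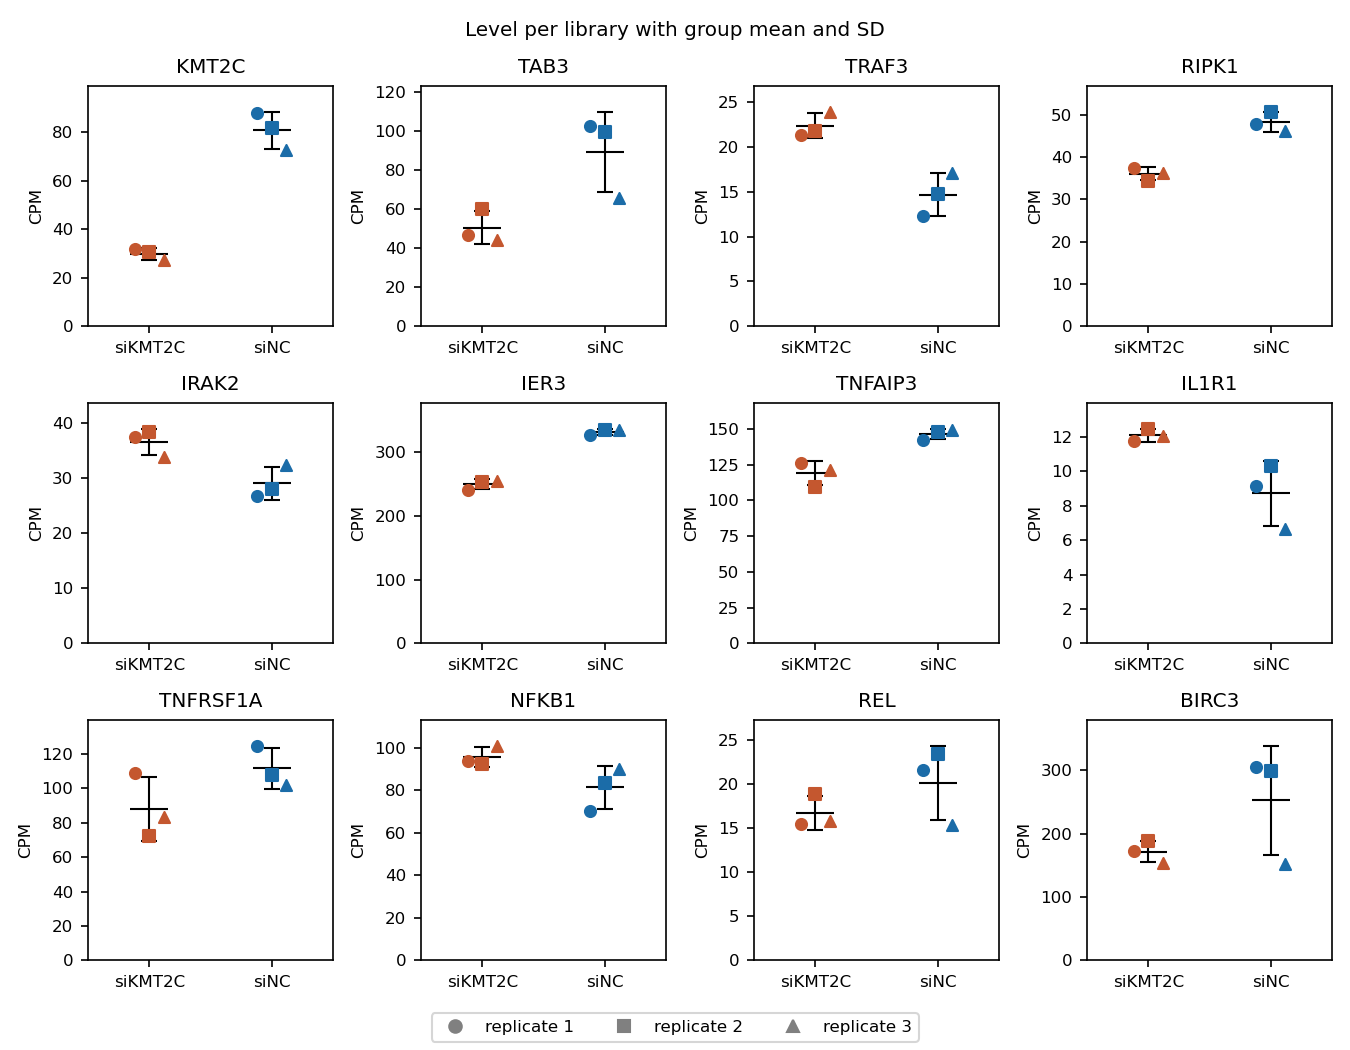
CPM in each library for KMT2C, the 10 pathway genes given in full and BIRC3, with the group mean and SD (n = 3 each); siKMT2C is left of siNC and marker shapes give the replicate number. The groups are separate for KMT2C, TAB3, TRAF3, RIPK1, IRAK2, IER3, TNFAIP3, IL1R1 and NFKB1, and siNC replicate 3 lies at the siKMT2C level for BIRC3.

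None of the 5 NF-κB subunits was called by edgeR, and 0 had an unadjusted p under 0.05; the 95% interval lay within 2-fold for all 5 and within 1.5-fold for 2. NFKB1, the precursor of p50, was at 93.6, 92.2 and 100.9 CPM in siKMT2C, against 70.4, 83.5 and 90.2 CPM in siNC, a narrow separation with a log2 fold change of 0.23 (SE 0.14, 95% interval -0.08 to 0.55, edgeR adjusted p = 0.445). REL was at 15.5, 19.0 and 15.8 CPM in siKMT2C, against 21.6, 23.5 and 15.4 CPM in siNC (log2 fold change -0.27, SE 0.20, 95% interval -0.72 to 0.19, edgeR adjusted p = 0.55). A noncoding gene on the same strand covers 43.3% of the REL exons, so the REL level is uncertain.

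RELA, the p65 subunit, was at 66.2, 60.5 and 67.4 CPM in siKMT2C, against 26.9, 75.6 and 64.8 CPM in siNC. The low value was that of siNC replicate 1 alone, and the 5 other libraries lay between 60.5 and 75.6 CPM. With it the RELA log2 fold change was 0.22 (SE 0.33, edgeR adjusted p = 0.801), and without it -0.12 (edgeR adjusted p = 0.738). RELB, at 24.8, 22.9 and 34.2 CPM in siKMT2C and 19.3, 23.9 and 32.5 CPM in siNC, and NFKB2, at 77.1, 73.2 and 90.8 CPM in siKMT2C and 61.1, 72.1 and 98.3 CPM in siNC, were both highest in replicate 3 of each group. These partners of the non-canonical route had overlapping ratios: NFKB2 to RELB in FPKM was 3.38, 3.49 and 2.89 in siKMT2C, against 3.45, 3.28 and 3.29 in siNC. The ratios of NFKB1 to RELA (exact permutation p = 1) and of NFKBIA to RELA (exact permutation p = 0.9) overlapped, with siNC replicate 1 highest in each.

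Among the inhibitors and feedback targets, 10 of 15 had a negative log2 fold change. IER3 (ENSG00000137331, chromosome 6, 30743199 to 30744554, GRCh38) was at 240.8, 253.5 and 254.4 CPM in siKMT2C, against 326.2, 334.4 and 334.0 CPM in siNC. Both groups were tight and did not overlap, and the log2 fold change was -0.41 (SE 0.10, 95% interval -0.65 to -0.17, edgeR adjusted p = 0.104). TNFAIP3, encoding the ubiquitin-editing brake A20, was at 126.0, 109.7 and 121.1 CPM in siKMT2C, against 142.5, 148.0 and 149.1 CPM in siNC, again without overlap (log2 fold change -0.30, SE 0.12, 95% interval -0.57 to -0.03, edgeR adjusted p = 0.241). IER3-AS1 overlaps 26.5% of the IER3 exons on the other strand, at 0.313 CPM in siKMT2C and 0.122 CPM in siNC.

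BIRC3, the cytokine-induced inhibitor of apoptosis cIAP2, showed how far 1 library set a value. It was at 171.7, 187.7 and 154.3 CPM in siKMT2C, against 304.5, 299.3 and 152.5 CPM in siNC. Replicates 1 and 2 of siNC were well above siKMT2C, and siNC replicate 3 was the lowest of all 6. The log2 fold change was -0.56 (SE 0.25, 95% interval -1.14 to 0.03, edgeR adjusted p = 0.316) with all libraries, and -0.83 (edgeR adjusted p = 0.0151) without siNC replicate 3. BIRC3 was not called when any 1 other library was left out. The ratio of BIRC3 to its neighbour and paralog BIRC2 in FPKM was 2.39, 2.44 and 2.26 in siKMT2C, against 3.01, 3.68 and 2.64 in siNC, so BIRC3 was lower relative to BIRC2 in every siKMT2C library, replicate 3 included (exact two-sided permutation p = 0.1, adjusted 0.233).

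The IκB genes did not move together. NFKBIA was at 96.7, 77.1 and 111.5 CPM in siKMT2C, against 76.5, 87.1 and 86.3 CPM in siNC (log2 fold change 0.19, SE 0.16, edgeR adjusted p = 0.61). NFKBIB (0.37, SE 0.29), NFKBIE (-0.04, SE 0.25) and NFKBIZ, encoding the IκBζ that IL-17A induces in keratinocytes (-0.12, SE 0.28), had overlapping groups as well. TNIP1 (0.25, SE 0.16), the RNase gene ZC3H12A (0.05, SE 0.19), the deubiquitinase CYLD (-0.28, SE 0.15), the adhesion molecule ICAM1 (-0.21, SE 0.15), BIRC2 (-0.15, SE 0.20) and TNFAIP8 (-0.30, SE 0.32) were not called, nor was TNFAIP2 (-0.86, SE 0.44), which stayed at or below 1.58 CPM in every library. SOD2, the mitochondrial superoxide dismutase, had a log2 fold change of 0.03 (SE 0.13), taken from ENSG00000112096; GENCODE 29 places another SOD2 gene entry over its exons, so that level is uncertain.

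**Figure D4:**
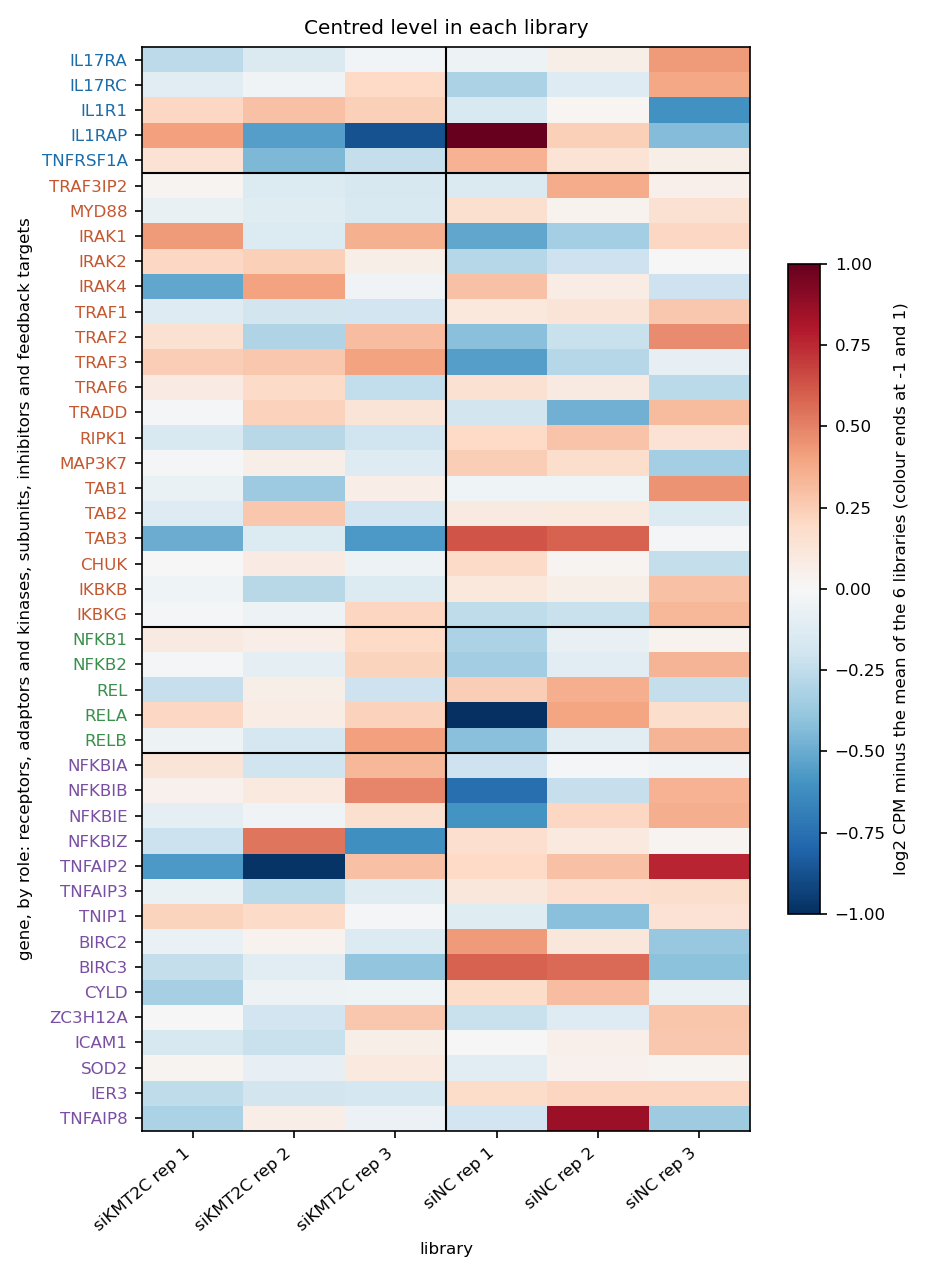
Log2 CPM of the 43 tested genes in each library, centred on the gene's mean over the 6 libraries, with siKMT2C on the left, siNC on the right and genes by role. TAB3, RIPK1, IER3 and TNFAIP3 are below their mean in each siKMT2C library, while the third siNC library departs from the first and second siNC libraries in BIRC3, BIRC2, IL1R1 and many others.

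The siNC libraries differed more among themselves than the siKMT2C libraries. Over the 43 genes the median SD of log2 CPM was 0.14 in siKMT2C and 0.26 in siNC, beside 0.19 and 0.26 over all genes tested. In siNC, replicate 3 was the library farthest from the other two in 28 of the 43 genes (65.1%), and in 56.9% of all genes tested. Without siNC replicate 3, 3 members were called by edgeR, TRAF3, TAB3 and BIRC3 (6.98% of 43 tested, beside 4.04% of 15358 genes). No member was called when any 1 other library was left out.

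GC content moved with these library differences. Across the 43 genes the correlation of transcript GC content with centred log2 CPM was 0.239 in siKMT2C replicate 1, -0.284 in replicate 2 and 0.631 in replicate 3, and in siNC it was -0.632, -0.581 and 0.845 by replicate number. Across 15022 tested genes it was -0.108, -0.332 and 0.246 by replicate number in siKMT2C, and in siNC it was -0.343, -0.117 and 0.582. These values describe genes within shared libraries and are not independent points. The 21 members with a GC content above the median of 53.1% had a mean centred log2 CPM of 0.30 in siNC replicate 3 and -0.23 in siNC replicate 1, while the 22 others had -0.14 and 0.16. BIRC3 (34.8% GC) and RELA (60.0% GC), singled out above for 1 low library each, lie on opposite sides of that median. In siNC replicate 1 RELA was at a centred log2 CPM of -1.09. The members nearest to it in GC content, TAB1 (60.4%) and NFKBIE (61.0%), were at -0.04 and -0.60 there. In siNC replicate 3 BIRC3 was at -0.41, and those nearest to it, BIRC2 (38.05%) and REL (38.7%), were at -0.38 and -0.24. The part of GC content in the BIRC3 and RELA values was not tested. After a loess correction for GC content and length, added after seeing the data, TRAF3 (0.75, edgeR adjusted p = 0.00813) and IRAK1 (0.54, edgeR adjusted p = 0.0283) rose and TAB3 (-0.76, edgeR adjusted p = 0.0089) and RIPK1 (-0.39, edgeR adjusted p = 0.0316) fell. These were 9.3% of the 43 genes, beside 8.85% of all genes called in that fit. TRAF3 and TAB3 ranged over adjusted p from 0.00813 to 0.337 and from 0.0089 to 0.34 over the edgeR settings without a minimum fold.

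**Figure D5:**
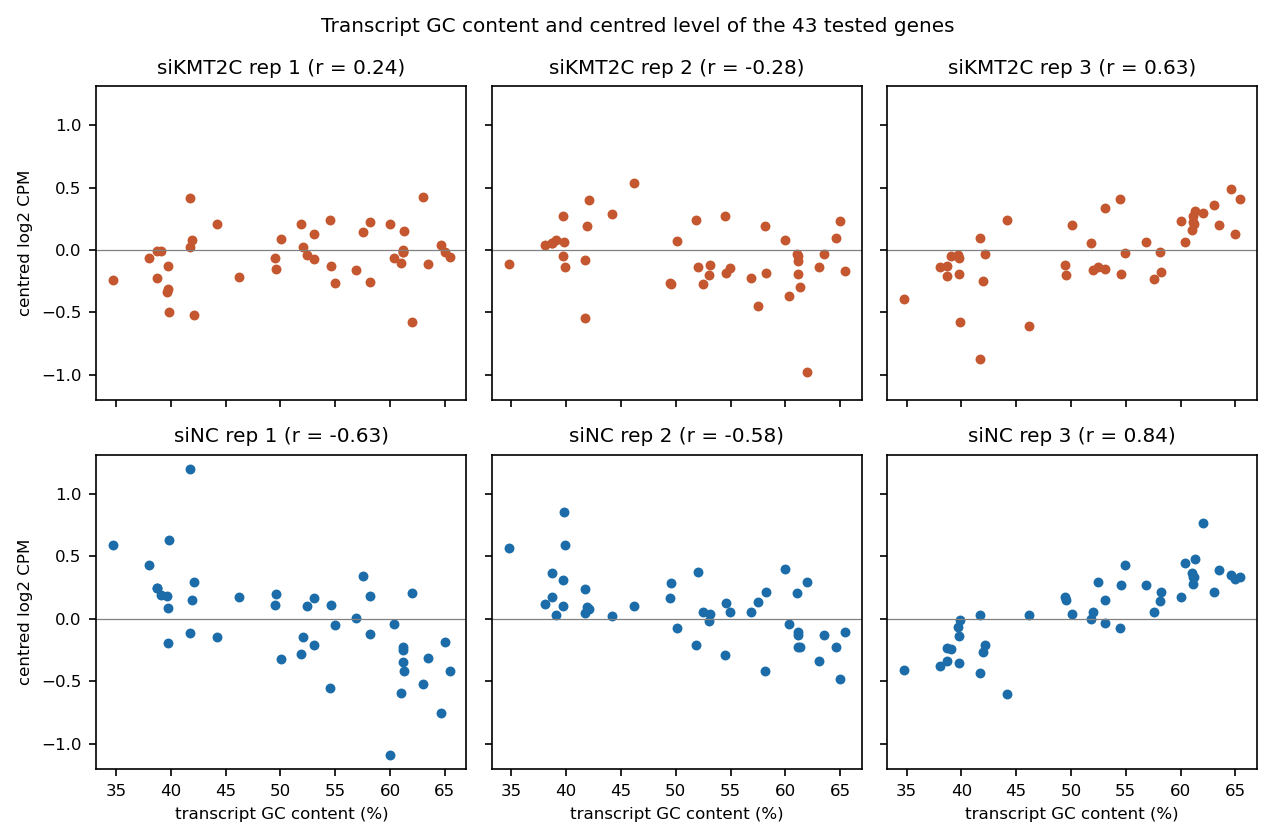
Transcript GC content (%) against centred log2 CPM of the 43 tested genes, 1 panel per library, siKMT2C in the upper row and siNC in the lower row, with Pearson's r over genes as a description. GC-rich genes sit high and GC-poor genes low in replicate 3 of both groups, most of all in siNC replicate 3, and the slope is the other way in siNC replicates 1 and 2.

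Of 93 other genes of the pathway, listed by role, 87 were tested, and 2 rose and 1 fell (3 of 87, beside 1.5% of all genes tested). These 3 calls, N4BP1, IL1RL1 and CXCL1, were all lost when any 1 library other than siNC replicate 3 was left out, and that of IL1RL1 also without siNC replicate 3 (edgeR adjusted p = 0.0528). N4BP1, a ribonuclease and brake on NF-κB, fell to 62.6, 65.1 and 66.1 CPM in siKMT2C, against 126.6, 122.8 and 115.4 CPM in siNC (log2 fold change -0.91, SE 0.12, edgeR adjusted p = 0.0146). This was the clearest separation among the brakes, where the A20-binding TNIP3 (2.56, SE 0.50, edgeR adjusted p = 0.0535) and the mRNA decay factor ZFP36L2 (-0.33, SE 0.11) were not called. IL1RL1, the receptor for IL-33, rose, but at a level near the detection limit: 0.795, 1.28 and 0.737 CPM in siKMT2C, against 0.114, 0.138 and 0.113 CPM in siNC (log2 fold change 2.88, SE 0.48, edgeR adjusted p = 0.0347). These levels rest on 13, 20 and 12 counts in siKMT2C and 2, 2 and 2 counts in siNC; IL1RL1 was removed by the CPM filter, and DESeq2 gave it no adjusted p (unadjusted p = 0.001001). Among the receptor-proximal genes the caspase-8 regulator CFLAR (0.43, SE 0.15) and the TWEAK receptor TNFRSF12A (0.51, SE 0.19) were not called.

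No gene of the 29 tested ubiquitin ligases and kinases was called by edgeR with all libraries, and 5 had an unadjusted p under 0.05. MAP2K4, the kinase above JNK, was at 30.1, 32.6 and 17.4 CPM in siKMT2C, against 68.4, 62.3 and 47.2 CPM in siNC (log2 fold change -1.15, SE 0.26, edgeR adjusted p = 0.0734), and DESeq2 called it. The ubiquitin-conjugating variant UBE2V2 (0.46, SE 0.13) and MAPK14, encoding p38α (-0.77, SE 0.28), followed without being called. MAPK14 was at 38.5, 40.3 and 37.5 CPM in siKMT2C, against 37.1, 77.2 and 84.1 CPM in siNC. Without siNC replicate 1 its log2 fold change was -1.06 and edgeR called it (adjusted p = 0.0452). Without siNC replicate 3 it was -0.57 (edgeR adjusted p = 0.314). Of 16 tested NF-κB output genes the neutrophil chemokine CXCL1 rose to 14.7, 15.4 and 14.7 CPM in siKMT2C, against 7.32, 8.72 and 7.996 CPM in siNC (log2 fold change 0.90, SE 0.16, edgeR adjusted p = 0.037). IL1B (-0.54, SE 0.13) and CCL20 (-0.74, SE 0.20) had values of the opposite sign and were not called by edgeR with all libraries (edgeR adjusted p = 0.0907 for IL1B and 0.115 for CCL20). DESeq2 called both as lower (adjusted p = 0.0225 for IL1B and 0.0461 for CCL20), and so did edgeR without siNC replicate 3 (adjusted p = 0.0322 for IL1B and 0.0408 for CCL20). Neither was called when any 1 other library was left out. The edgeR adjusted p then ranged from 0.179 to 0.34 for IL1B and from 0.214 to 0.367 for CCL20. Of the 16 output genes 6 had an unadjusted p under 0.05 (37.5%, beside 16.9% of all genes tested) and 6 did not overlap between groups (37.5%, beside 24.1%). The output genes had 10 positive and 6 negative values and a median log2 fold change of 0.13, so they did not share 1 direction.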

How the data were processed

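RNA libraries used a SMARTER mRNA-Seq kit, per the labels' protocols. The authors deposited whole-number counts per gene and FPKM values in 1 table, per the file headers, and FPKM equalled the counts rescaled by library total and a fixed length (largest relative deviation 2.7e-05 over 12772 genes). Tools named in the submitters' processing notes are CASAVA 1.8 and TopHat2 2.0.6; these notes give a mouse build, while identifiers are human Ensembl ones. Which counter, strand setting and human build were used is not given in the sources used here. Symbols were found for 57532 of 58302 identifiers; coordinates are GENCODE 29 on GRCh38. Exons of 20 of the 45 genes overlap another gene, 14 of them on the opposite strand, and without strand information reads there cannot be told apart.

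Counts were tested with edgeR 4.0.16 in R 4.3.3 (filterByExpr, TMM, robust quasi-likelihood F test, Benjamini-Hochberg over all 15063 genes tested). SE is the absolute log2 fold change over the square root of F, and intervals use the fit's total degrees of freedom. The fit was also run on simulated counts with added changes. That simulation held no GC differences between libraries, so it does not cover those seen here. DESeq2 1.42.0, limma 3.58.1 (voom) and other settings were alternatives. Genes given in full are those with an unadjusted p under 0.05 and the 2 smallest p of each role; of each list of other genes at most 3 are named. The members and lists were chosen with earlier results of these data known. Figures used Python 3.11.15 and matplotlib 3.10.9.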

Additional observations from a re-analysis of the deposited data

How the results depend on the processing

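The count of called members was 0 with edgeR and with limma-voom, RLE factors, library size alone, no filter (45 genes tested), the CPM filter and a 1.5-fold minimum (glmTreat). It was 2 with DESeq2, 3 with the replicate block, 4 with the GC and length correction and 5 with that correction and the replicate block. The count over all genes was 226, and 805 with DESeq2, 968 with the replicate block, 18 with glmTreat, 1333 with the GC and length correction and 1323 with that correction and the replicate block. Of the other pathway genes 3 were called, 2 with the CPM filter, 5 with no filter, 5 with DESeq2, 8 with the replicate block, 0 with glmTreat (edgeR without the minimum had 17 at an unadjusted p under 0.05), 14 with the GC and length correction and 16 with that correction and the replicate block. Leaving out libraries (each in turn, and both numbered 3) gave 0 to 3 called members, 16 to 648 genes, 0 to 5 other pathway genes, 11 to 27 members without overlap (27 without both libraries numbered 3, 23 without siNC replicate 3), a member median of -0.1396 to -0.01562 and a KMT2C log2 fold change of -1.509 to -1.365. The share of all genes without overlap is not given for these settings. Fewer libraries separate more easily, so these counts of members without overlap have no background and say nothing about the members. The cause of these shifts was not tested.

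Ratio differences changed sign without single libraries: NFKB1 to RELA ranged from -0.37 to 0.25, NFKB2 to RELB from -0.0944 to 0.04008 and NFKBIA to RELA from -0.42 to 0.23. Of the 43 tested members 26 kept the sign of their log2 fold change in every setting and 17 did not; the 10 genes given in full kept theirs, and 13 of their alternatives moved a gene inside the threshold. Same-numbered libraries had correlations of their deviations of 0.0195, 0.107 and 0.389, the last being the highest of all pairs. Replicate 2 of siKMT2C correlated best with replicate 1 of siNC (0.318). Replicate 1 of siKMT2C was near 0 with each siNC library. The numbers were not taken to pair the libraries, but these values do not settle whether they do. The replicate block called IL1RAP (-0.67, edgeR adjusted p = 0.0234), TRAF3 (0.62, edgeR adjusted p = 0.044) and TAB3 (-0.81, edgeR adjusted p = 0.0146), and among the other pathway genes also IL1B and CCL20. IL1R2 and TNFRSF1B, with at most 14 counts in a library, were fitted only with no filter (not called) and by DESeq2, which gave no adjusted p for either.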
